A study of Homo sapiens with 8 samples.

Results

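The promoters described here belong to chromatin regulators whose symbols begin with KDM, KMT2, KMT5, SETD, HDAC, SIRT, SMARC, CHD and a digit, ARID, DNMT or TET and a digit. On the autosomes, 92 of 19229 protein-coding genes in the GENCODE annotation on hg19 carried such a symbol, in 11 families, and 6 more lay on the X or Y chromosome and were left out. Each gene was scored by the G4 ChIP-seq intervals within 1 kb either side of any of its annotated transcription start sites (TSSs). Genes were taken by symbol and not by their values, although earlier results of these data were known when the symbols were chosen. The symbols also took in CHD9NB, a gene named as a neighbour of CHD9 and counted here with that family, and some proteins whose main substrate is not a histone, such as SETD3, which methylates actin.

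G4 ChIP-seq, in which sheared chromatin is precipitated with an antibody (BG4) against folded G-quadruplexes (G4s), was carried out in K562, a chronic myelogenous leukaemia line, and in HepG2, a hepatocellular carcinoma line, neither with a treatment named in the labels. The labels give 3 G4 ChIP libraries, described as technical replicates, and 1 input library per line, whereas the study's methods merge 8 replicates for K562 and 9 for HepG2 from 3 independent experiments each. Stretches that 5 or more of the 8 K562 replicates or 6 or more of the 9 HepG2 replicates had in common form the high-confidence lists (9205 and 8805 intervals), and stretches common to 2 or more form the lower-confidence lists (19249 and 28387). An interval comes as a chromosome, a start and an end, without a height, a read count or the replicates behind it, so the depth behind each call is unknown, no spread between replicates could be computed, and differences between the lines or the families were not tested.

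Chromatin regulators set how tightly DNA is packed and which genes can be read. Writers such as the KMT2, KMT5 and SETD methyltransferases and the DNMT enzymes place methyl groups on histones or DNA, erasers such as the KDM demethylases, the HDAC and SIRT deacetylases and the TET dioxygenases take marks off, and the SMARC, CHD and ARID proteins act in machines that slide or evict nucleosomes or recruit other factors to DNA. A G4 forms where runs of G on the same DNA strand lie close enough to stack on each other, and promoters rich in G and C hold many such places.

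In 9 families, the promoter G4 motif nearest to a TSS is shown for the member with the most high-confidence bases among those holding a motif of at most 30 bases, since the motif is the sequence that could fold in these intervals. The motif searched was 4 runs of at least 3 G separated by loops of 1 to 7 bases, on both strands, with no overlap between matches on a strand. Letters were read from the GRCh37 (hg19) reference, 5′ to 3′ on the strand that carries the G-runs, and the capitals mark runs of at least 3 G. The high-confidence TET interval, at TET3 in K562, held no motif, and lower-confidence intervals are not covered here.
KMT2B: GGGGagagagcGGGGGcGGGGcGGGG
KMT5C: GGGtcgaggtGGGGGtggaGGGcGGG
SETD5: GGGccaatGGGtgcGGGGcggtGGG
DNMT3B: GGGccggacGGGGcagcGGGagtGGG
KDM2A: GGGaGGGagacaGGGcGGGGG
HDAC4: GGGaGGGcGGGGcccgcaaGGGG
SIRT5: GGGatgtGGGGGatggtGGGtGGG
SMARCD2: GGGctGGGttGGGcGGGG
CHD9: GGGGcaGGGaGGGagtggaGGG

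The KDM2A, HDAC4, SIRT5 and SMARCD2 motifs lay inside high-confidence intervals of both lines and the other 5 inside intervals of K562. The motif of KMT2B (chr19:36208830-36208855, minus strand) was upstream of all 29 annotated transcripts, at -32 bp from the nearest TSS. That of SETD5 (chr3:9439196-9439220, plus strand) was upstream of all 44 transcripts of the gene. The HDAC4 motif (chr2:240322811-240322833, minus strand, which is the strand of the gene) was upstream of 17 of 18 transcripts. The DNMT3B motif (chr20:31350192-31350217, minus strand) fell in the 5′ UTR of the canonical transcript, 14 bp after a TSS and on the strand opposite to the gene.

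Some of the others sat at internal start sites. The motif of KDM2A (chr11:67007344-67007364, plus strand) lay in an intron of the canonical transcript at -164 bp from a start site inside the gene. The motifs of KMT5C (chr19:55852758-55852783, plus strand) and CHD9 (chr16:53164918-53164939, minus strand) were also intronic in the canonical transcript. SIRT5 (chr6:13574758-13574781, plus strand) and SMARCD2 (chr17:61920341-61920358, minus strand) carried theirs 9 bp and 75 bp after a TSS, upstream of the canonical transcript and on the strand of the gene.

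High-confidence G4s were found at most of these promoters. In K562, 62 of 92 members (67.4%, 95% Wilson interval 57.3 to 76.1) had a high-confidence interval, against 36.7% of all autosomal protein-coding genes. In HepG2, 54 members (58.7%, 48.5 to 68.2) had one, against 32.0% of all genes. Both lines had one at 46 members (50%, 40.0 to 60, all genes 25.3%), and 70 members (76.1%, all genes 43.4%) had one in either line. No interval of any of the 4 lists was present at 10 members (10.9%, 6.01 to 18.9, all genes 39.6%). These intervals cover the counting of genes only.

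Lower-confidence intervals alone were less frequent than high-confidence ones. In K562, 13 members (14.1%) had a lower-confidence interval alone, against 14.6% of all genes. In HepG2 it was 22 members (23.9%), against 20.8%. A high-confidence K562 interval without any HepG2 interval was present at 4 members (4.35%, all genes 3.15%), and the reverse at 1 member (1.09%, all genes 2.54%), so both shares stood close to the background.

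**Figure D1:**
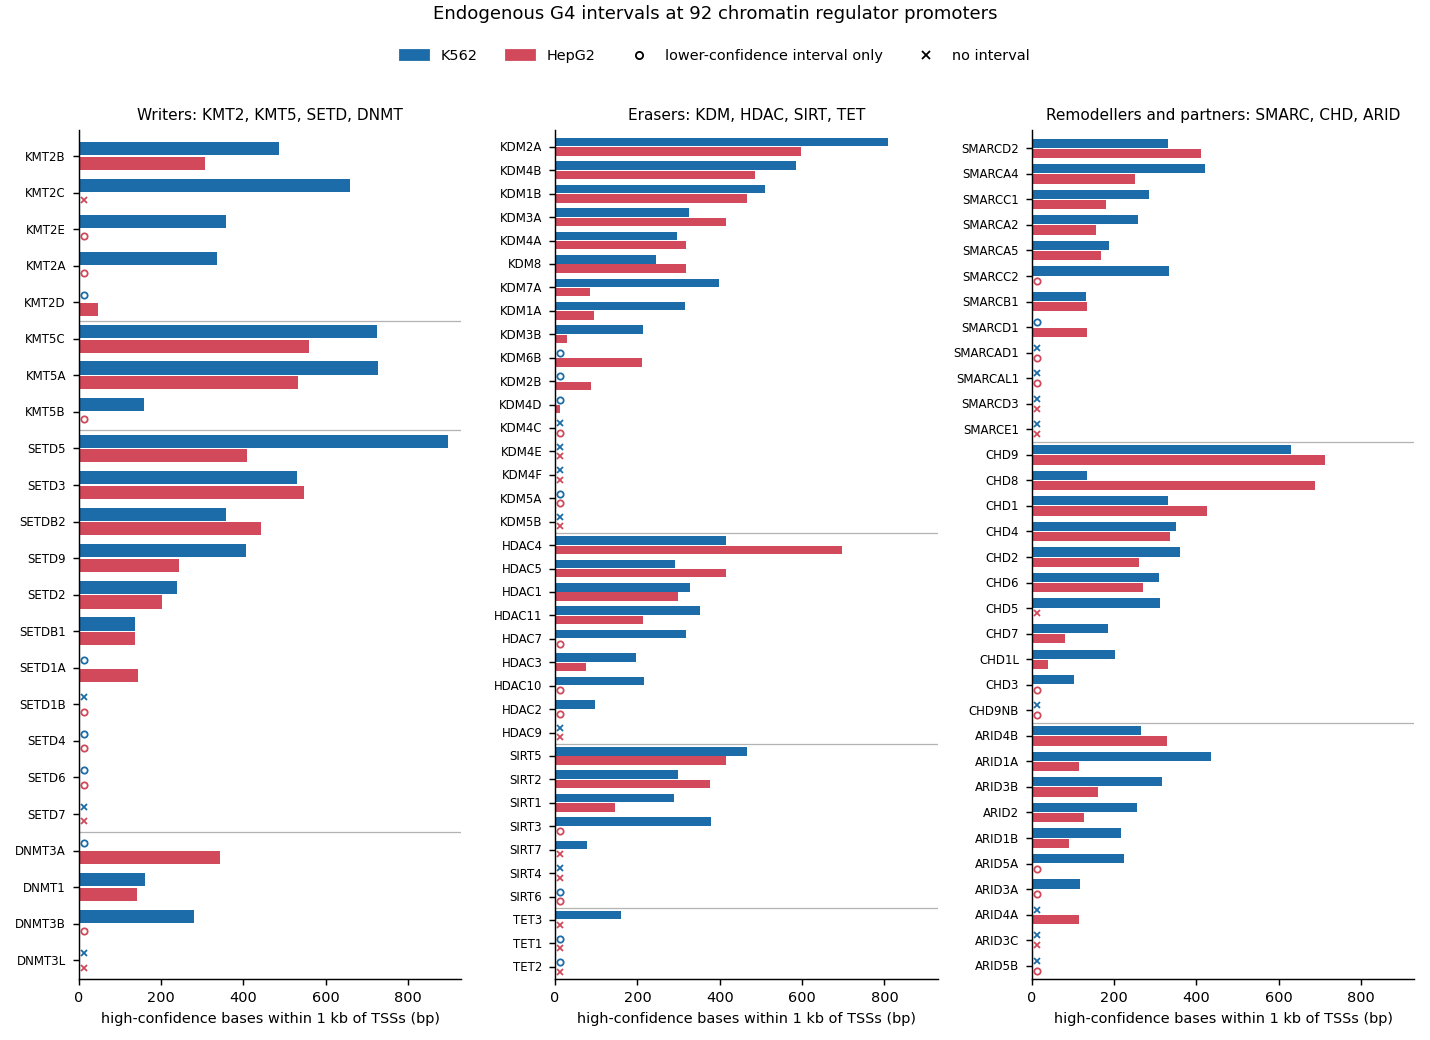
High-confidence bases (bp) within 1 kb of the TSSs of each of the 92 members in K562 (blue) and HepG2 (red), by role and family (grey lines), with open circles for a lower-confidence interval only and crosses for no interval. SETD5 in K562 has the longest bar with 898 bp, and 10 members have a cross in both lines.

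By role, the shares of members with a high-confidence interval had Wilson intervals that overlapped, and their order depended on the windows. In K562 the counts were 24 of 33 remodellers and partners (72.7%), 15 of 23 writers (65.2%) and 23 of 36 erasers (63.9%). In HepG2 they were 21 (63.6%), 13 (56.5%) and 20 (55.6%). With the canonical TSS alone, remodellers and partners went from the highest to the lowest share in both lines, with 60.6% against 65.2% of writers and 61.1% of erasers in K562, and 51.5% against 52.2% and 52.8% in HepG2. Lower-confidence intervals alone were present at 1 remodeller or partner in K562, with 8 lacking any interval, and at 8 in HepG2, with 4 lacking any.

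The families differed in which line had more members with an interval. The KDM demethylases had high-confidence intervals at 9 of 17 members in K562 and at 12 in HepG2. All of the 9 KDM members with a K562 interval also had a HepG2 one, and so did all 6 SETD members. HDAC, SIRT, CHD and KMT5 stood the other way, with every HepG2 high-confidence member also found in K562. Among all genes, 68.9% of those with a K562 high-confidence interval also had a HepG2 one, and 78.9% the reverse. No family was tested against these shares. HDAC had 8 of 9 in K562 and 5 in HepG2, SIRT 5 of 7 and 3, and CHD 10 of 11 and 8. SMARC had 7 of 12 in each line, ARID 7 of 10 and 6, SETD 6 of 11 and 7, KMT2 4 of 5 and 2, KMT5 3 of 3 and 2, and DNMT 2 of 4 in each. TET had 1 of 3 in K562 and none in HepG2, where 0 of 3 genes allows a share of up to 56.1% by the Wilson interval. With 3 to 17 genes a family, the intervals of the 2 lines overlapped in every family. The counts of some families rested on alternative start sites. With the canonical TSS alone, CHD fell to 7 of 11 in K562 and 5 in HepG2, and ARID to 6 of 10 and 5. KMT2 fell to 1 of 5 and KDM to 11 of 17 in HepG2, and TET to 0 of 3 in K562. HDAC, SIRT, SETD, SMARC, KMT5 and DNMT had the same counts as before.

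**Figure D2:**
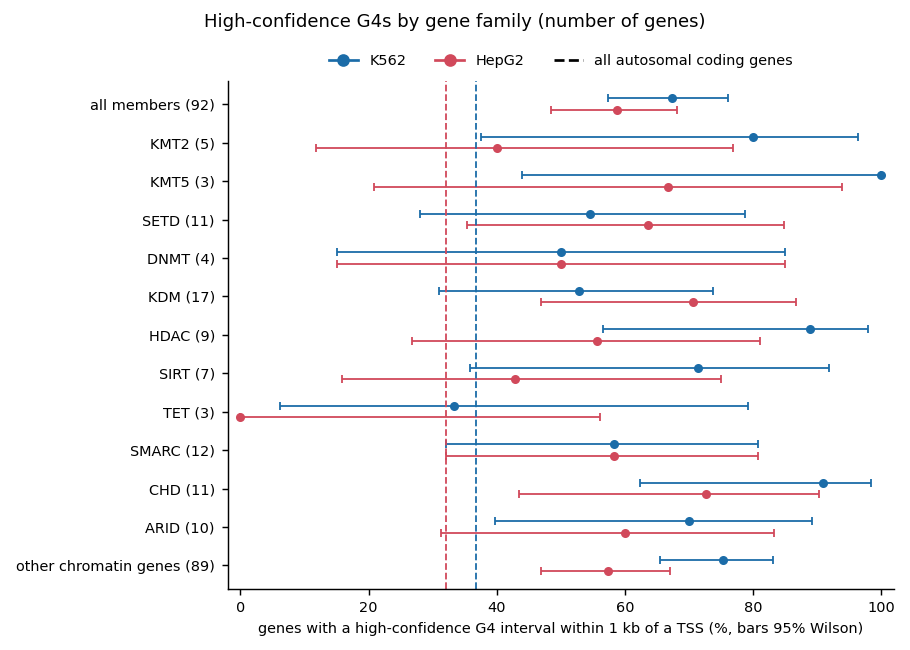
Share (%) of genes with a high-confidence interval in K562 (blue) and HepG2 (red) for all members, for each family and for other chromatin genes, with gene numbers in brackets, 95% Wilson bars and dashed lines at the shares of all autosomal protein-coding genes. CHD (90.9%) and HDAC (88.9%) have the highest K562 shares after KMT5, which has 3 genes, but with the canonical TSS alone CHD stands at 63.6% and HDAC still at 88.9%.

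Among the writers, the KMT2 genes, which encode the large methyltransferases of the COMPASS type that mark promoters and enhancers (KMT2E is a related protein without clear enzyme activity), were mostly found in K562. KMT2B had 487 bp of high-confidence interval in its windows in K562 and 307 bp in HepG2. KMT2C had 659 bp in K562 and no interval of either HepG2 list. KMT2A had 337 bp and KMT2E 358 bp, in 3 intervals, in K562, each with lower-confidence intervals alone in HepG2. KMT2D was the exception, with 47 bp in HepG2 and lower-confidence intervals in K562 (606 bp in the windows).

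All 3 KMT5 genes, which encode the methyltransferases of histone H4, had a K562 interval. KMT5C had 726 bp in K562 in 3 intervals and 560 bp in HepG2 in 1 interval of that width. That HepG2 interval (chr19:55850662-55851221) overlapped the upstream pair of K562 intervals, 311 bp and 215 bp wide, and the third K562 interval lay 1514 bp downstream of the canonical TSS. KMT5A had 727 bp and 534 bp. KMT5B had 159 bp in K562 and a lower-confidence interval alone in HepG2.

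SETD5 had the most high-confidence bases of any member in K562, 898 bp in 2 intervals against 409 bp in 1 interval in HepG2. Both lines shared the upstream interval, centred at -736 bp (K562) and -689 bp (HepG2) from the TSS, whereas the interval at the TSS itself (chr3:9439106-9439454) was of lower confidence in HepG2. SETD3 had 530 bp in K562 and 548 bp in HepG2, SETDB2 358 bp and 444 bp, SETD9 406 bp and 243 bp, SETD2 238 bp and 202 bp, and SETDB1, which silences repeats by histone methylation, 138 bp in each line. SETD1A, a COMPASS methyltransferase, had 145 bp in HepG2 and lower-confidence intervals in K562 (420 bp in the windows). SETD1B had a lower-confidence interval in HepG2 alone, SETD4 and SETD6 had lower-confidence intervals in both lines, and SETD7 had none.

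Of the DNMT genes, DNMT3A and DNMT3B had high-confidence intervals in different lines, each with lower-confidence calls in the other. DNMT1, which copies methylation after replication, had 162 bp in K562 and 141 bp in HepG2. DNMT3A, a de novo methyltransferase, had 343 bp in HepG2 in 3 intervals, 1 of them 3 bp wide, and a lower-confidence interval of K562. DNMT3B, the other de novo enzyme, had 280 bp in K562, and its HepG2 lower-confidence interval of 56 bp lay elsewhere in the windows. DNMT3L, their cofactor without enzyme activity, had no interval.

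Among the erasers, KDM2A, a histone demethylase with a domain that binds unmethylated CpG, had the most high-confidence bases over both lines together, 808 bp in K562 and 597 bp in HepG2. Both lines had 1 interval at the canonical TSS and 1 at an internal TSS, with centres 120705 bp (K562) and 120663 bp (HepG2) downstream of the canonical one. KDM4B followed with 585 bp and 486 bp, KDM1B with 510 bp and 465 bp (3 intervals in HepG2) and KDM3A with 326 bp and 415 bp. KDM4A had 297 bp and 319 bp, and KDM8, a JmjC-domain protein, 244 bp and 318 bp. KDM7A had 399 bp and 84 bp, KDM1A, the flavin-dependent demethylase LSD1, 315 bp and 94 bp, and KDM3B 214 bp and 29 bp. At these last 3 members the HepG2 intervals lay at the K562 intervals, with fewer bases.

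The 3 KDM genes with a high-confidence interval in HepG2 and lower-confidence ones in K562 had small intervals. KDM6B, which removes the Polycomb methyl mark, had 212 bp in HepG2, KDM2B 88 bp and KDM4D 12 bp. The KDM4D interval was nearest to the TSS of its neighbour CWC15. KDM5A had lower-confidence intervals in both lines, KDM4C in HepG2, and KDM4E, KDM4F and KDM5B had none.

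The HDAC deacetylases included HDAC4, which had 415 bp in 1 K562 interval and 697 bp in 3 HepG2 intervals. The K562 interval (chr2:240322721-240323135) was contained in the widest HepG2 interval of 533 bp, and both held the same 3 motifs, of 18 in the windows of the gene. HDAC5 had 292 bp in 3 K562 intervals, 1 of them 14 bp wide, and 414 bp in 2 HepG2 intervals, both lines sharing places at the canonical TSS and at an internal TSS, 12275 bp and 12285 bp downstream. HDAC11 had 353 bp and 213 bp, HDAC1 328 bp and 298 bp, and HDAC3 196 bp and 75 bp. HDAC7 (319 bp), HDAC10 (217 bp) and HDAC2 (96 bp) had K562 high-confidence intervals and lower-confidence ones in HepG2, and HDAC9 had no interval.

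SIRT5, a mitochondrial deacylase, led the sirtuins with 466 bp in K562 and 415 bp in HepG2, in 2 intervals at the same places in both lines. SIRT2 had 298 bp and 376 bp and SIRT1 289 bp and 145 bp. SIRT3, a mitochondrial deacetylase, had 379 bp in K562 against lower-confidence intervals in HepG2, and SIRT7, a nucleolar sirtuin, 77 bp in K562 against none. SIRT6 had lower-confidence intervals in both lines and SIRT4 no interval in its windows. The study names a region SIRT4 among its G4-positive sites for qPCR in K562. Where that region lies against the windows scored here was not examined. Of the TET enzymes, which oxidise methylcytosine, TET3 had 159 bp in K562 at an internal TSS, and TET1 and TET2 had lower-confidence K562 intervals of 422 bp and 67 bp.

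Among the remodellers, CHD9 held the widest interval of a member in both lines, 605 bp in K562 (chr16:53164336-53164940) and 581 bp in HepG2 (chr16:53164345-53164925). Its HepG2 interval lay wholly within that of K562, and its windows had 630 bp and 712 bp in all. CHD8 had 135 bp in K562 and 688 bp in HepG2, where an interval at the shared place was 447 bp wide and a further one of 241 bp had no K562 counterpart. CHD1 had 331 bp and 426 bp, CHD2 361 bp and 260 bp, CHD4, the ATPase of the NuRD complex, 351 bp and 335 bp, and CHD6 310 bp and 270 bp. CHD7 had 186 bp and 82 bp and CHD1L 202 bp and 40 bp. CHD5 (312 bp) and CHD3 (103 bp) were found in K562, with no HepG2 interval at CHD5 and a lower-confidence one elsewhere in the windows of CHD3.

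The ATPases of SWI/SNF, SMARCA4 and SMARCA2, had 422 bp and 250 bp and 259 bp and 157 bp, K562 first. The core subunit SMARCB1 had 131 bp and 135 bp, and SMARCD2 had 332 bp and 411 bp, the highest of the family in HepG2. SMARCC1 had 284 bp and 180 bp, and its paralogue SMARCC2 333 bp in K562 with a lower-confidence interval in HepG2. SMARCD1 stood the other way with 135 bp in HepG2. The ISWI ATPase SMARCA5 had 188 bp and 168 bp. SMARCAD1 and SMARCAL1 had HepG2 lower-confidence intervals alone, and SMARCD3 and SMARCE1 had none.

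ARID1A, the DNA-binding subunit of a SWI/SNF form, had 435 bp in K562 in 4 intervals, 2 of them 9 bp and 20 bp wide, and 115 bp in HepG2 in 1. ARID4B, of the SIN3 corepressor, had 266 bp and 328 bp, the most of its family in HepG2. ARID3B had 317 bp and 162 bp, ARID2 255 bp and 128 bp and ARID1B 217 bp and 91 bp. ARID5A (224 bp) and ARID3A (117 bp) had K562 high-confidence intervals and lower-confidence ones in HepG2, and ARID5B a lower-confidence HepG2 interval alone. ARID4A, the paralogue of ARID4B, was the member with a high-confidence HepG2 interval (114 bp) and no K562 interval, and that interval was nearest to the TSS of its neighbour ARMH4. ARID3C had no interval.

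Where both lines had a high-confidence interval at a member, they had it at the same place. At all 46 such members an interval of K562 overlapped one of HepG2, with 29 bp (KDM3B) to 581 bp (CHD9) in common and a median of 243 bp. The HepG2 intervals lay wholly inside K562 intervals at 21 of the 46 and the reverse held at 6. Such overlaps were not counted gene by gene over all genes, so they cannot be called particular to the members. K562 had more covered bases at 31, HepG2 at 14, and the counts were equal at SETDB1. Over all 4861 genes with high-confidence intervals in both lines, K562 had more at 3015, HepG2 at 1832 and 14 were equal. The medians were 321.5 bp in K562 and 284 bp in HepG2, with a median difference of 75 bp, against 265 bp, 232 bp and 32 bp over those 4861 genes. Windows were longer at members than at all genes (median 10309 bp and 4688 bp), and covered bases were not compared at equal length. K562 and HepG2 lists come from different numbers of replicates and thresholds, so bases per line are not on a common scale.

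**Figure D3:**
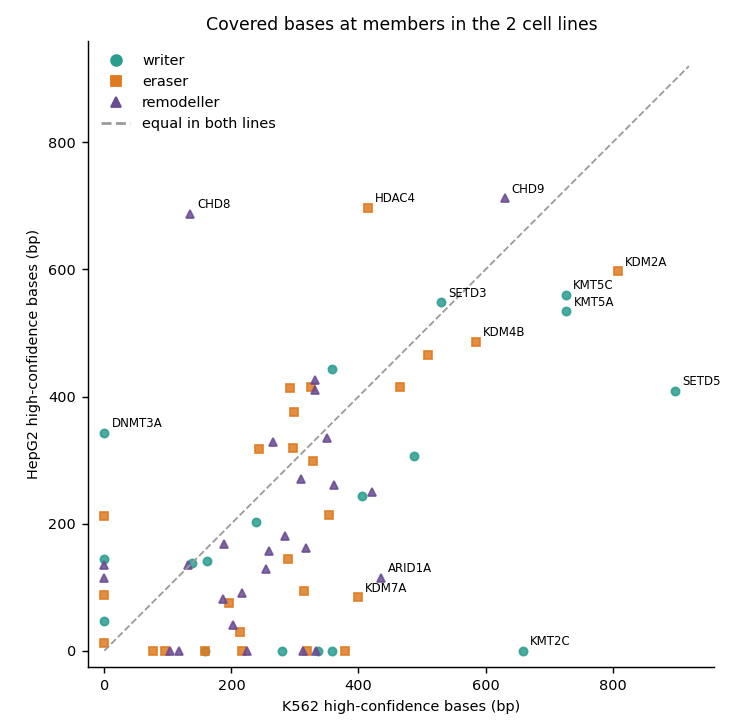
High-confidence bases (bp) of each member in K562 (x axis) against HepG2 (y axis), with markers by role and a dashed line of equality, for the 70 members with an interval in either line. Among the 46 members off both axes, 31 lie below the line, and CHD8 and HDAC4 lie farthest above it.

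The places also coincided where the calls differed in strength. Of the 12 members with a high-confidence K562 interval and a lower-confidence HepG2 one, 9 had the HepG2 interval overlapping the K562 interval, and HDAC7, CHD3 and DNMT3B had it elsewhere. Of the 7 members the other way round, 6 overlapped and KDM2B did not. For these counts, too, no share over all genes was computed. K562 covered 96 to 379 bp at the 12 members, with a median of 252 bp, and HepG2 12 to 343 bp at the 7, with a median of 135 bp. Over single intervals, 53 of 86 in K562 (61.6%) and 53 of 70 in HepG2 (75.7%) overlapped a high-confidence interval of the other line, near the 58.0% and 70.4% at all genes.

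KMT2C, which encodes a methyltransferase of enhancers, had the most motifs of any member in its intervals, all in K562. It was picked out for this after the values were seen, and its 6 motifs are shown in order along chromosome 7 (hg19), each on the strand that carries the G-runs, with those runs in capitals. The first 4 lay side by side in an interval of 178 bp (chr7:152133045-152133222) on the plus strand, opposite to the gene. The last 2 lay in an interval of 481 bp (chr7:152133509-152133989), on the minus and the plus strand in turn.
KMT2C-a: GGGGccGGGcGGGGGGcggcGGG
KMT2C-b: GGGGcGGGcggtgcGGGGcGGG
KMT2C-c: GGGGccggcGGGtgcGGGcGGG
KMT2C-d: GGGGcagccGGGcGGGcGGG
KMT2C-e: GGGGGaGGGaacccGGGGGGGaGGGGG
KMT2C-f: GGGatcGGGatcGGGGaactgcGGG

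The GC content of these KMT2C intervals was 88.2% and 80.2%, and all 6 motifs were upstream of the canonical transcript. The K562 interval of DNMT3B (chr20:31349939-31350218), which no HepG2 interval overlapped, held 4 motifs. Of the other members without any HepG2 interval in their windows, the interval of CHD5 (chr1:6187831-6188142), a remodeller gene active mainly in the nervous system, held 1 and lay at an internal TSS, 52395 bp downstream of the canonical one. The TET3 interval (chr2:74229707-74229865) and the SIRT7 interval (chr17:79875990-79876066) held none. Neither did the HepG2 interval of ARID4A (chr14:58764908-58765021).

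Over all members, 63 motifs lay inside high-confidence intervals, at 35 of the 70 members with one. The gene strand carried 33 and the other strand 30. Intervals of both lines held 25, K562 intervals alone 36 and HepG2 intervals alone 2. Neither split of the motifs was computed over all genes. In K562, 38 of 86 intervals (44.2%, 34.2 to 54.7) held a motif, against 35.0% at all genes, and in HepG2 20 of 70 (28.6%, 19.3 to 40.1) against 25%. After KMT2C came DNMT3B with 4 motifs, and KDM2A, KMT2B, HDAC4, SIRT3, CHD4 and ARID3B had 3 each. With runs of only 2 G allowed, 88.4% and 87.1% of the intervals held a motif, against 91.1% and 85.8% at all genes.

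Some member windows held many motifs without any interval in the 4 lists. SMARCD3, a SWI/SNF subunit known from heart and skeletal muscle, had 23 motifs in its windows, DNMT3L 22, KDM5B 11, HDAC9 4, SETD7 and ARID3C 3 each and SMARCE1 1, whereas KDM4E, KDM4F and SIRT4 had none. For the first pair, chosen after the values were seen, the motif nearest to the canonical TSS is shown with its G-runs in capitals (hg19), for SMARCD3 on the minus strand at chr7:150945493-150945514 and for DNMT3L on the plus strand at chr21:45681837-45681857.
SMARCD3: GGGctgatcGGGaGGGGccGGG
DNMT3L: GGGGGcGGGGaGGGGcGGGGG

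The SMARCD3 motif was intronic in the canonical transcript and on the strand of the gene, and the DNMT3L motif upstream of its canonical transcript and on the other strand. In all, 84 members (91.3%) had a motif somewhere in their windows, against 76.5% of all genes, with a median of 6 motifs against 2. In windows of the same length, the 2001 bp around the canonical TSS, the shares were 83.7% and 68.4%. Of the 8 members without a motif in their windows, SETDB2 was the only one with a high-confidence interval (12.5% in each line, against 17.5% and 18.6% of all genes without a motif).

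The intervals gathered just upstream of start sites. Interval centres had a median position of -70 bp to the nearest TSS of the gene in K562 (quartiles -177 and -20) and -108 bp in HepG2 (-198 and -20), against -52 bp and -61 bp at all genes. Centres upstream of that TSS made up 83.7% and 77.1%, beside 79.1% and 78.0% at all genes. For all genes, an interval in the windows of several genes was measured to the nearest TSS among them. At members it was measured to the member even where a neighbour was nearer, so these positions and shares are not like for like. Against the annotated transcripts, 42 of 86 centres in K562 (48.8%) and 38 of 70 in HepG2 (54.3%) lay outside every transcript of the gene, 29 and 23 in introns only, and 15 and 9 in an exon of some transcript. These places were not counted over all genes. The median width was 218 bp in K562 (9 to 605) and 165 bp in HepG2 (3 to 581), against 204 bp and 182 bp at all genes. Each member with an interval had a median of 313.5 bp covered in K562 and 246.5 bp in HepG2, against 233 bp and 208 bp at all genes with an interval. These bases were summed over windows that were longer at the members (median 10309 bp, all genes 4688 bp), and they were not compared at equal length.

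**Figure D4:**
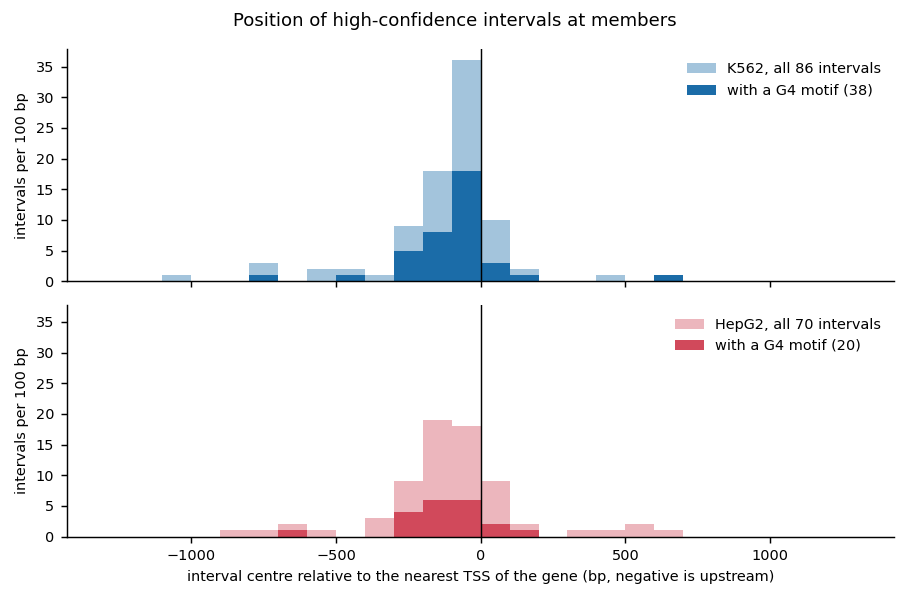
Number of high-confidence intervals at members per 100 bp of distance from the interval centre to the nearest TSS of the gene (negative is upstream), in K562 (top) and HepG2 (bottom), with intervals that hold a G4 motif in the darker shade. The counts peak between the TSS and 200 bp upstream in both lines, and some of the intervals with a motif (38 and 20) lie outside that range.

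The members had more annotated start sites than other genes, and so larger windows. The median member had 13.5 TSS positions and 10309 bp of window, against 5 positions and 4688 bp over all genes. With the canonical TSS alone, which gives each gene a window of equal length, 57 members (62.0%) had a high-confidence interval in K562 and 48 (52.2%) in HepG2, against 33.7% and 29.0% of all genes. Members with 11 or more TSS positions had shares of 74.6% and 62.7%, against 53.6% and 48.1% of all genes with as many. Members with 1 to 5 positions had 42.1% in each line, against 25.1% and 21.5%. At 6 members in each line every interval was centred over 1 kb from the canonical TSS, namely CHD4, CHD9 and ARID1B in both lines, CHD3, CHD5 and TET3 in K562, and CHD2, KDM2B and KMT2D in HepG2.

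Member promoters were also richer in G and C, with a median GC content of 66.7% in the 1001 bp around the canonical TSS against 61.4% over all genes. Among members at 70% GC or more, 29 of 32 (90.6%, 75.8 to 96.8) had a high-confidence interval in K562 and 20 (62.5%, 45.3 to 77.1) in HepG2. Of all genes in that class, 54.5% and 37.2% had one. Between 60 and 70%, the members stood at 63.4% and 61.0% against 49.9% and 43.5%. Between 50 and 60%, they stood at 41.7% and 58.3% (12 members) against 26.7% and 29.5%, and below 50% 2 of 7 members (28.6%) had an interval in each line, against 4.49% and 4.74%. The difference between K562 and HepG2 was thus largest at the promoters of highest GC, among members as among all genes. The part that window length and GC content had in the shares and covered bases above was not tested.

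**Figure D5:**
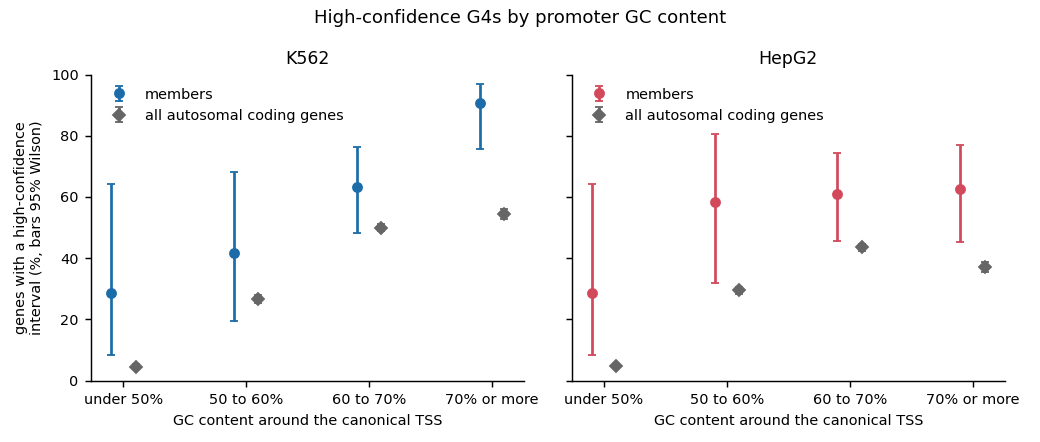
Share (%) of members (coloured circles) and of all autosomal protein-coding genes (grey diamonds) with a high-confidence interval in K562 (left) and HepG2 (right), by GC content of the 1001 bp around the canonical TSS, with 95% Wilson bars. K562 members rise to 90.6% at a GC content of 70% or more, whereas HepG2 members stay between 58.3% and 62.5% from 50% upward.

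Some intervals are shared with a neighbour. Another protein-coding gene had a TSS within 1 kb of a TSS of 20 of 92 members, and of 4569 of all 19229 genes. In both lines together, 12 of the 156 member intervals were nearer to the neighbour's TSS, a count not made over all genes. Besides KDM4D and ARID4A these were intervals at SETD3 (next to CCNK), SETDB2 (CAB39L), HDAC3 (RELL2) and ARID4B (GGPS1) in both lines, 1 at SIRT3 (PSMD13) in K562 and 1 at KDM1B (TPMT) in HepG2. Intervals carry no strand, so a G4 at such a place cannot be ascribed to 1 gene of the pair.

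Other chromatin genes had shares whose Wilson intervals overlapped those of the members. Of 89 such genes in 11 groups, 67 (75.3%, 65.4 to 83.1) had a high-confidence interval in K562, 51 (57.3%, 46.9 to 67.1) in HepG2 and 46 (51.7%) in both. Partner subunits of the member families were among them. Further SWI/SNF subunits had 12 of 15 in K562 and 7 in HepG2, the HDAC corepressors 9 of 13 and 8, and the core subunits of the KMT2 complexes 3 of 6 and 4. SIN3A, the scaffold of an HDAC corepressor, had 1413 bp in K562 and 1494 bp in HepG2, more than any member in either line (named after its values were seen), while its paralogue SIN3B had no interval. The acetyltransferases, which act against the HDAC enzymes, had 9 of 10 in K562 and 5 in HepG2, and the other lysine methyltransferases 8 of 8 and 5.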

How the data were processed

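The lists deposited by the authors hold positions in bp of intervals on hg19. Per the study's methods, reads were trimmed (cutadapt) and aligned (BWA), duplicates were removed (Picard, samtools), and MACS2 called peaks (q-value threshold 0.05) for every replicate, from which bedtools multiinter made 2 lists per line. Merging trims each interval to the stretch shared by enough replicates, so its width also depends on how well replicates agreed, and the threshold differed between the lines. Sequencing depth is not in the lists, the input libraries have no values of their own there, and the study's methods also drew on earlier K562 data.

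Intervals were compared with GENCODE 44 lifted to GRCh37 (the study used an earlier release), and an overlap of 1 bp with a window of 1 kb either side of any TSS counted. A member was classed by its strongest list in each line. Shares have 95% Wilson intervals. The members and lists were chosen with earlier results of these data known. Values are given in full for members with the most covered bases over all, by family or by number of intervals, for those found in 1 line alone and for those without an interval. Overlap and motif functions were tested on simulated data (2000 cases each, 100% equal to a direct search). Sequences from chromosome 8 are not shown. A motif of the ARID family is not reported here. Python 3.11.15, numpy 2.4.6, scipy 1.17.1 and pysam 0.24.0 were used. Other windows, TSS sets, overlap rules, width minimums and motif definitions were tried as alternatives.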

Additional observations from a re-analysis of the deposited data

How the results depend on the processing

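Of 86 recomputed values over the members, 80 stayed within the 95% Wilson interval of the value reported, under windows of 500 bp or 2 kb either side or 1 kb upstream only, coding transcripts only, the canonical TSS only, an overlap of at least 50 bp, interval centres inside the window, intervals under 50 bp left out, members sharing a promoter left out and, added after the data were seen, CHD9NB left out. The share with a HepG2 high-confidence interval and no K562 interval fell from 1.09% to 0 of 72 members once members sharing a promoter were left out. The share of member intervals with a motif moved most. With loops of 1 to 12 bases it was 55.8% in K562 and 41.4% in HepG2, with runs of at least 2 G 88.4% and 87.1%, and with HepG2 intervals extended by 50 bp on both sides 45.7%. No paired analysis was possible because each line has merged lists without replicate columns, and for the same reason no replicate could be left out. The lists give calls without strength, so a member just under a threshold cannot be told from one well under it, and the line cannot be told apart from the threshold used for it (5 of 8 against 6 of 9 replicates).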
